A study of Mus musculus with 17 samples.

Results

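Spermatogonial stem and progenitor cells (SSCs), the self-renewing germ cells of the testis, were compared as cultured lines with embryonic stem cells (ESCs) and induced pluripotent stem (iPS) cells, which formed 1 group of pluripotent lines. The comparison covers 8 of the 17 samples of the series, namely 4 SSC lines, 2 ESC lines and 2 iPS lines, and its members were chosen by the cell type in the sample labels. All lines are mouse lines kept on feeder layers of mouse embryonic fibroblasts (MEFs). SSC 1, SSC 2 and ESC 1 carry an Oct4-GFP background, SSC 3 is C57Bl/6J, and SSC 4, ESC 2, iPS 1 and iPS 2 are 129mix. SSC lines were grown from dissociated testis tissue in a StemPro-34 based medium with GDNF, bFGF, EGF, β-estradiol, progesterone and a small amount of serum, and their feeders were depleted by plating on gelatin before RNA was taken. ESCs and iPS cells grew in a serum replacement medium with LIF, and no feeder depletion is stated for them. iPS lines came from embryonic fibroblasts in which doxycycline drove the 4 reprogramming factors Oct4, Sox2, Klf4 and c-Myc from 1 cassette (tetO-4F2A, in a cross with H3.3B-HA), and colonies were picked by hand. Cell type, medium and feeder removal therefore differ together and cannot be told apart here. No source states whether lines of 1 type came from separate animals, so each p-value measures the spread between these lines.

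The pluripotent state of ESCs and iPS cells is held by a network of transcription factors around Oct4 (encoded by Pou5f1), Nanog and Sox2, fed by LIF, Nodal and FGF signals. SSCs are unipotent in the testis. Their self-renewal depends on GDNF from Sertoli cells, which acts through the receptor pair Gfra1 and Ret, and on transcription factors such as Plzf (encoded by Zbtb16). As germ cells they also carry RNA-binding proteins and the piRNA machinery that silences transposons.

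Each transcript was measured as an FPKM (fragments per kilobase of transcript, scaled to the mapped fragments of the library), which sets levels per length. Values were compared as log2(FPKM + 1), so the difference of a transcript with low values is understated. In the fit with limma over 32661 RefSeq transcripts, a transcript was called 4-fold when its log2 difference was at least 2 and its Benjamini-Hochberg adjusted p was under 0.05. It was called 2-fold when the difference was at least 1. Errors after ± are standard errors (SE) of the log2 difference with n = 4 lines against 4, unless they are named otherwise. In all, 712 transcripts were higher in SSC lines (2.18% of those tested) and 581 were lower (1.78%) by the 4-fold rule. By the 2-fold rule, 2892 transcripts were higher (8.85%) and 1711 were lower (5.24%). A count of list members near these shares is not read as a result about the list.

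Coverage at 1 FPKM was between 1.94 and 3.23 reads per base in the 8 lines. Between 15718 and 16272 transcripts reached 1 FPKM in an SSC line, against 14639 to 15217 in a pluripotent line. The 11454 transcripts at 1 FPKM or more in all 8 lines were 0.17 higher in SSC lines at the median on the log2 scale. When the lines were set to an equal median, 512 transcripts were higher and 818 lower by the 4-fold rule, and quantile normalization gave 501 higher and 684 lower, so the balance of directions depends on the scaling. Equal medians shift all transcripts of a line alike, those near 0 included, so the median difference over all transcripts became -0.23 and counts under this scaling lean towards lower. Pearson's r across transcripts was 0.92 to 0.96 between SSC lines, 0.95 to 0.98 between pluripotent lines and 0.85 to 0.88 between the groups.

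**Figure D1:**
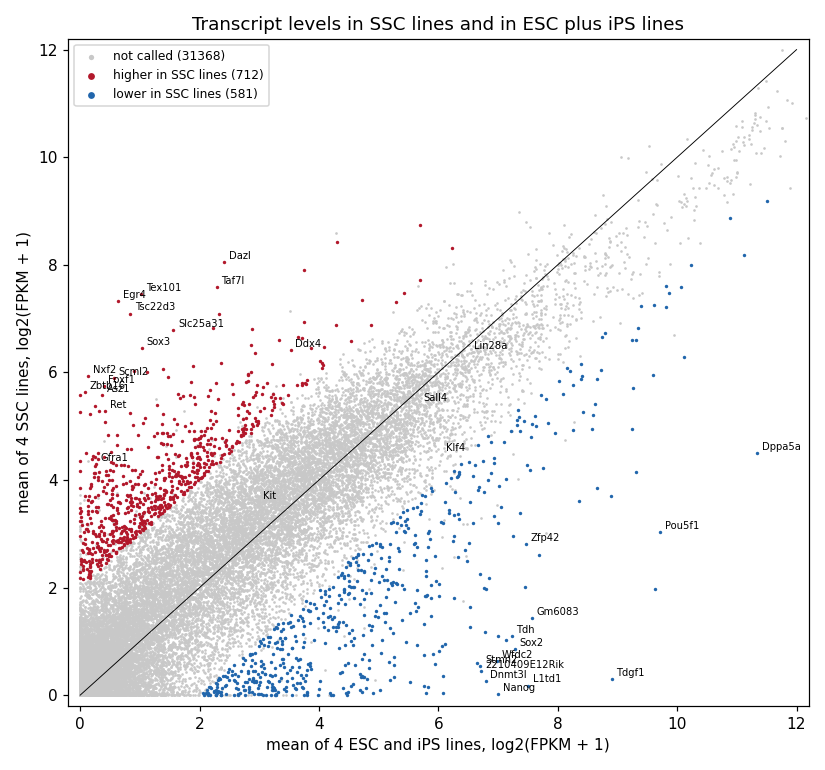
Mean level of each transcript in the 4 ESC and iPS lines (x axis) and in the 4 SSC lines (y axis), both as log2(FPKM + 1), with the transcripts called by the 4-fold rule in red (712 higher in SSC lines) and blue (581 lower) and the line of equal levels in black. Germ cell genes such as Dazl, Tex101 and Taf7l lie at the upper left, and Pou5f1, Dppa5a and Tdgf1 at the lower right.

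The labels were checked against markers of each cell type. Of 8 spermatogonial markers, 7 were higher in SSC lines by the 2-fold rule, and their summed level was 618 to 858 FPKM in SSC lines against 96.9 to 135 FPKM in pluripotent lines. All 7 pluripotency markers were lower in SSC lines, with sums of 12.8 to 155 FPKM against 3750 to 6150 FPKM. The 5 spermatid markers stayed under 1 FPKM in all 8 lines. The 4 Sertoli cell markers summed to 18.6 to 23.3 FPKM in SSC lines against 0.669 to 4.2 FPKM, and 2 were higher. Markers of differentiating spermatogonia summed to 36.1 to 110 against 11.7 to 29.5 FPKM, with 1 of 4 higher. Those of meiotic cells summed to 53.1 to 134 against 20.4 to 60.1 FPKM, also with 1 of 4 higher. No marker of Leydig cells, blood cells or endothelium was called. The 8 fibroblast markers, such as Col1a2 and Postn, summed to 303, 3.40, 730 and 66.8 FPKM in SSC 1 to 4, and to 318, 58.7, 2.49 and 30.9 FPKM in ESC 1, ESC 2, iPS 1 and iPS 2, against 5210 FPKM in the MEF sample. They were thus spread over both groups, and none of the 8 was called. In such bulk RNA, fewer cells of a type and less RNA per cell cannot be told apart.

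The 12 largest differences in each direction were taken only from transcripts whose lines did not overlap between the groups. Those towards SSC lines were led by Egr4, Tex101 and Tsc22d3. Egr4, an early growth response transcription factor on chromosome 6 (chr6:85461116-85463536, mm9), was at 177, 101, 183 and 193 FPKM in SSC 1 to 4 and at 0.885, 1.65, 0.0977 and 0.0748 FPKM in ESC 1, ESC 2, iPS 1 and iPS 2 (log2 difference 6.68 ± 0.37, adjusted p = 0.000162). Tex101, a surface glycoprotein of germ cells (chr7:25453031-25457069), was at 195, 160.5, 209 and 140.4 FPKM in SSC lines and at 0.768, 1.13, 0.762 and 1.58 FPKM in pluripotent lines (log2 difference 6.43 ± 0.18, adjusted p = 1.81e-05). Both genes were far above every pluripotent line in each SSC line. Tsc22d3, a glucocorticoid-induced leucine zipper protein on the X chromosome, was at 111 to 166 FPKM in SSC lines and 0.272 to 1.47 FPKM in pluripotent lines (log2 difference 6.26 ± 0.25, adjusted p = 5.6e-05). The steroid-containing SSC medium and the cell type cannot be told apart for this gene.

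The next in size were mostly germline genes. Dazl, a germ cell RNA-binding protein, was at 202, 405, 275 and 216 FPKM in SSC 1 to 4, against 3.17, 10.1, 3.73 and 2.68 FPKM in the pluripotent lines (log2 difference 5.64 ± 0.41, adjusted p = 0.000403). Zbtb16 (chr9:48462402-48644050) was at 63.5, 33.6, 32.2 and 80.2 FPKM against at most 0.0954 FPKM (log2 difference 5.54 ± 0.31, adjusted p = 0.000176). Dazl was not absent from the pluripotent lines. Taf7l and Slc25a31, a germ cell form of a general transcription factor subunit and a germ cell ADP/ATP carrier, differed by 5.29 ± 0.39 and 5.22 ± 0.39 on the log2 scale. Asz1, a scaffold of piRNA granules, differed by 5.21 ± 0.22. Nxf2, an mRNA export factor, Sox3, an HMG-box factor, and Scml2, a germline Polycomb protein, differed by 5.80 ± 0.44, 5.42 ± 0.71 and 5.32 ± 0.28. Foxf1, a forkhead factor, completed the 12 with 5.35 ± 0.60. The spread within SSC lines was widest for Sox3, at 137, 20.7, 112 and 175 FPKM, and for Foxf1, at 82.7, 21.1, 32.7 and 131 FPKM, with the lowest value of both in SSC 2.

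In the other direction the largest difference was that of Tdgf1 (Cripto), the co-receptor of Nodal (chr9:110842112-110848662). It was at 0.663, 0.0410, 0.301 and 0.0137 FPKM in SSC 1 to 4 and at 296, 422, 783 and 532 FPKM in the pluripotent lines (log2 difference -8.60 ± 0.32, adjusted p = 4.9e-05). L1td1, an RNA-binding protein of embryonic cells, was at most at 0.232 FPKM in SSC lines and at 134 to 291 FPKM in pluripotent lines (log2 difference -7.33 ± 0.24, adjusted p = 2.86e-05). No SSC line came near a pluripotent line for either gene. Nanog (chr6:122657583-122664651) reached 0.0435 FPKM at most in SSC lines against 99.5, 99.4, 153 and 174 FPKM (log2 difference -6.99 ± 0.20, adjusted p = 1.81e-05). Dppa5a, a KH-domain RNA-binding protein and the most abundant of the 12, was at 41.8, 36.6, 24.6 and 5.36 FPKM against 2164, 2297, 3504 and 2609 FPKM (log2 difference -6.84 ± 0.62, adjusted p = 0.000837). Dppa5a was therefore still detected in all 4 SSC lines. Dnmt3l, the cofactor of the de novo DNA methyltransferases, and Sox2 differed by -6.53 ± 0.25 and -6.41 ± 0.45. Tdh, threonine dehydrogenase, differed by -6.14 ± 0.54, Stmn2, a microtubule regulator, by -6.16 ± 0.33, and Wfdc2, a secreted protease inhibitor-like protein, by -6.36 ± 0.45. The noncoding transcripts 2210409E12Rik and Gm6083 differed by -6.25 and -6.13.

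**Figure D2:**
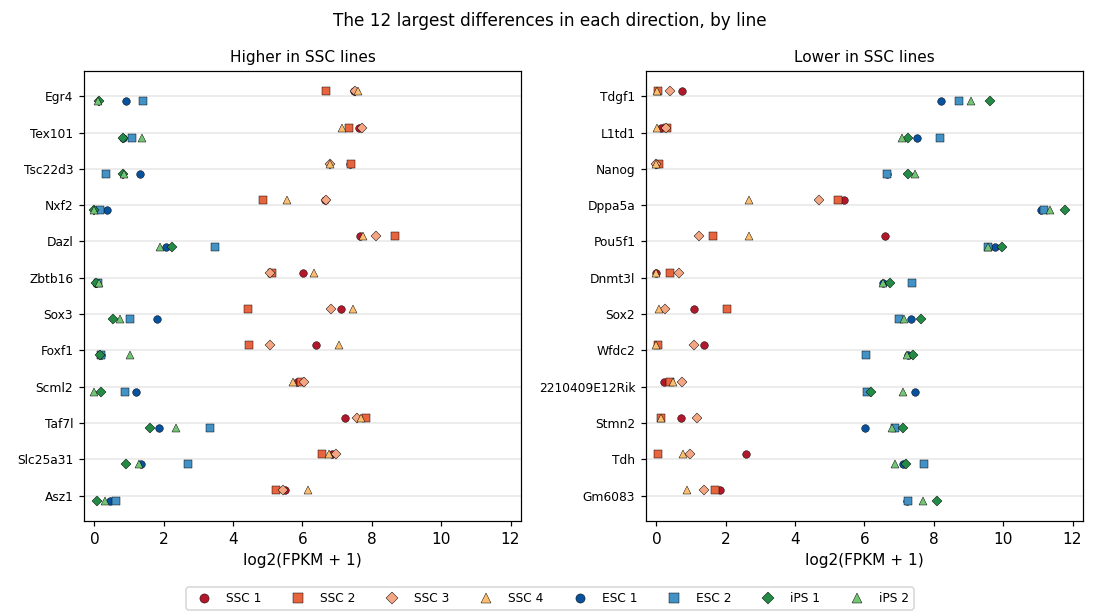
Level of the 12 transcripts with the largest difference in each direction as log2(FPKM + 1) (x axis), with 1 point per line and the 4 SSC lines in red to yellow, ESC lines in blue and iPS lines in green. SSC and pluripotent lines are separate for all 24 because the rule that chose them required it, and SSC 1 lies above the other 3 SSC lines for Pou5f1.

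Pou5f1 (chr17:35642977-35647722, mm9) was the gene with the widest spread among SSC lines of these 24. It was at 94.5, 2.10, 1.36 and 5.42 FPKM in SSC 1 to 4 and at 874, 755, 998 and 751 FPKM in the pluripotent lines (log2 difference -6.68 ± 1.17, adjusted p = 0.00894). SSC 1 stood above the other 3 SSC lines and below every pluripotent line. Without SSC 1 the difference was -7.86 with an adjusted p of 0.000524. With ESC lines or iPS lines alone as the reference the log2 difference was -6.63 and -6.73, with adjusted p = 0.0899 and 0.0747, and the call was lost. It was also lost with strain as a block (log2 difference -6.38, adjusted p = 0.0549). SSC 2 has the same Oct4-GFP background as SSC 1, and no measurement here tells the sources of the SSC 1 value apart. Of the 35 core pluripotency regulators, 11 had their highest SSC value in SSC 1, 10 in SSC 2, 6 in SSC 3 and 8 in SSC 4. This ranking includes genes near 0 in all SSC lines, such as Nanog. Of the named genes, in this list or not, Dppa3 (Stella) and Tdh were among those highest in SSC 1. Dppa3 was at 9.46, 0.688, 1.05 and 0.0767 FPKM and Tdh at 5.02, 0.0316, 0.944 and 0.704 FPKM in SSC 1 to 4. Nanog and Sox2 were highest in SSC 2 (0.0435 and 3.13 FPKM) and Dnmt3l, which is not among the 35, in SSC 3 (0.569 FPKM). The fibroblast marker sum was 303, 3.4, 730 and 66.8 FPKM in SSC 1 to 4, and its relation to Pou5f1 was not tested.

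Among 35 core pluripotency regulators, 28 were lower in SSC lines by the 2-fold rule, 25 of them by the 4-fold rule, and none was higher. Their median log2 difference was -3.34, against 0.01 over all transcripts. Beside the genes above, the orphan receptors Nr0b1 and Esrrb differed by -5.68 ± 0.32 and -4.67 ± 0.38, and the zinc finger factor Zscan10 by -4.67 ± 0.31. Zfp42 (Rex1) was at 10.6, 10.4, 9.63 and 0.695 FPKM in SSC 1 to 4 and at 36.2, 228, 386 and 292 FPKM in ESC 1, ESC 2, iPS 1 and iPS 2 (log2 difference -4.66 ± 0.98, adjusted p = 0.0174). Its lowest value in each group was in SSC 4 and ESC 1. The call of Zfp42 was lost without iPS 1 or iPS 2, each left out alone (adjusted p = 0.0517 to 0.0518). Within the Oct4-GFP background the Zfp42 difference was -1.69, and within 129mix it was -7.45. Among SSC lines Zfp296 was highest in SSC 4 (log2 difference -1.75 ± 0.38, adjusted p = 0.0202), and its call was lost without SSC 1 or SSC 3, each left out alone (adjusted p = 0.0526 to 0.0532). Otx2 differed by -2.96 ± 0.38 with at most 0.0703 FPKM in SSC lines. Utf1, which spermatogonia also express, was at 15.5, 4.22, 14.6 and 15.5 FPKM against 429.6, 343, 331 and 231 FPKM (log2 difference -4.74 ± 0.43, adjusted p = 0.000835).

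The 7 regulators that were not called by the 2-fold rule were Klf2, Klf4, Nr5a2, Sall1, Sall4, Tcl1 and Jarid2. Sall4, a zinc finger factor of both cell types, was at 63.1, 22.03, 39.1 and 55.6 FPKM in SSC 1 to 4 and 90.03, 61.0, 35.8 and 31.6 FPKM in the pluripotent lines (log2 difference -0.25 ± 0.46, adjusted p = 0.784), with overlapping groups. Klf4 was at 25.0, 7.21, 50.1 and 21.8 FPKM against 120.2, 39.9, 60.9 and 62.4 FPKM (log2 difference -1.57 ± 0.61, adjusted p = 0.117). Its exact permutation test over lines gave p = 0.0571, and the smallest p that this two-sided test can give with 4 against 4 lines is 0.0286. With the filter on low values, which also changes the variance that limma shares among transcripts, Klf4 had the same log2 difference and an adjusted p of 0.0375. Myc was at 2.43, 2.42, 0.00343 and 2.50 FPKM against 6.00, 28.3, 6.35 and 10.5 FPKM, with no overlap (log2 difference -2.18 ± 0.63, adjusted p = 0.0502). Myc missed the threshold narrowly, and its adjusted p was below 0.05 in 8 of the other settings, such as quantile normalization (adjusted p = 0.0305). It did not pass in any fit with 1 line left out, such as that without SSC 1 (adjusted p = 0.0818). Nor did it pass with ESC or iPS lines alone or with strain or line number as a block. Lin28a, an RNA-binding protein of pluripotent and germ cells, was at 141, 44.6, 36.9 and 189.6 FPKM against 84.5, 112, 88.5 and 78.9 FPKM (log2 difference -0.14 ± 0.57, adjusted p = 0.959). Lin28a in SSC 1 and SSC 4 was above all pluripotent lines, and in SSC 2 and SSC 3 it was below them.

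**Figure D3:**
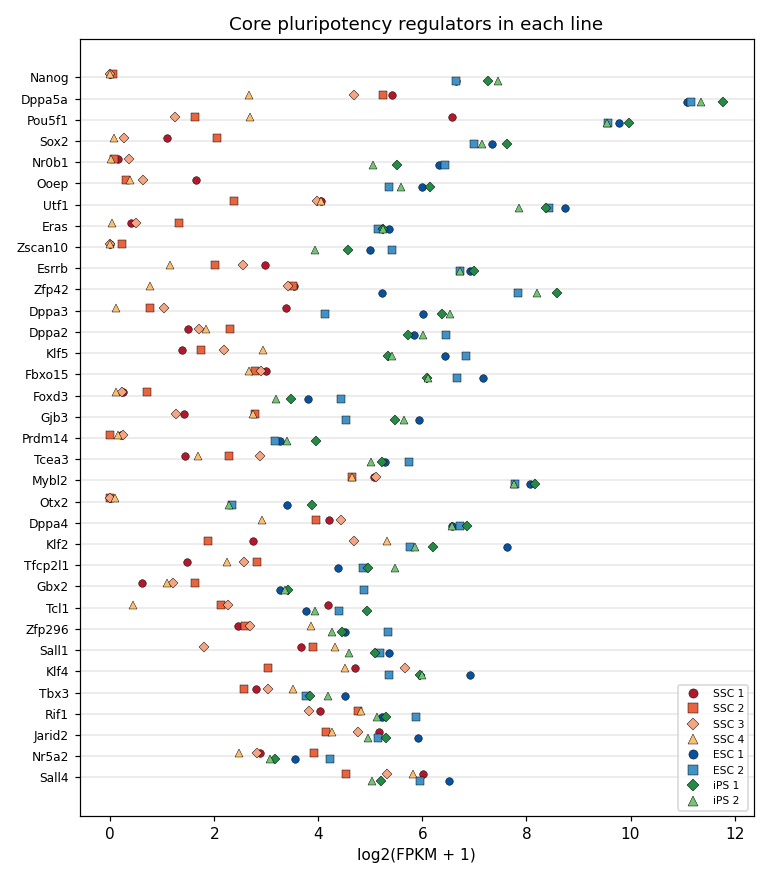
Level of core pluripotency regulators as log2(FPKM + 1) (x axis) in each line, ordered by the difference between SSC and pluripotent lines, with SSC lines in red to yellow, ESC lines in blue and iPS lines in green. SSC lines lie to the left of the pluripotent lines for the genes at the top, such as Nanog and Sox2, and overlap them for Sall4 at the bottom.

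Of 31 Nodal and FGF pathway genes, 11 were lower in SSC lines by the 2-fold rule, 9 of them by the 4-fold rule, and none was higher (median -0.88). Of the ligands, Nodal itself differed by -4.34 ± 0.22, and Fgf4 was at most at 0.101 FPKM in SSC lines against 59.5, 72.2, 86.9 and 53.5 FPKM in the pluripotent lines (log2 difference -6.04 ± 0.15, adjusted p = 1.6e-05). Lefty1, an inhibitor of Nodal, and Gdf3, a ligand of the same receptors, differed by -4.92 ± 0.43 and -4.56 ± 0.16. The co-receptor Tdgf1 was lower, as given above, while the receptor kinases of this list, such as Fgfr1 (1.45, adjusted p = 0.0871) and Acvr1b (-0.06, adjusted p = 0.972), were not called. Of 20 BMP and Id genes, 10% were called in each direction. The 2 that were lower were the ligand Bmp4 (log2 difference -3.90 ± 0.27, adjusted p = 0.000367) and the inhibitor of differentiation Id2 (log2 difference -3.34 ± 0.66, adjusted p = 0.014). Another 2 were higher, namely Bmp7 (log2 difference 2.02 ± 0.51, adjusted p = 0.0331) and Id4 (log2 difference 1.91 ± 0.34, adjusted p = 0.009), and the call of Bmp7 was lost under quantile normalization (adjusted p = 0.0603) and was lost without SSC 1, SSC 2, SSC 4, ESC 1, ESC 2, iPS 1 or iPS 2, each left out alone (adjusted p = 0.0503 to 0.0823).

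Among 16 genes of LIF and Jak-Stat signalling, 5 were higher and 3 lower. The kinases Jak1, at 66.3 to 85.1 FPKM against 12.4 to 20.4 FPKM, and Jak2 were higher (log2 difference 2.13 ± 0.16, adjusted p = 0.000416 and log2 difference 2.02 ± 0.32, adjusted p = 0.00618), as were Stat3, Stat5a and Stat5b by the 2-fold rule. Socs2, a feedback inhibitor, and Bcl3, a transcriptional cofactor, were lower (log2 difference -2.78 ± 0.38, adjusted p = 0.00357 and log2 difference -2.53 ± 0.42, adjusted p = 0.00723). ESCs and iPS cells were grown with LIF, and no LIF is stated for the SSC medium. In the list of 19 RNA and translation regulators, 4 were higher and 2 lower by the 2-fold rule. Nanos3, Nanos2 and Dnd1, which protect germ cells, were higher by the 4-fold rule. Nanos2 was at 14.8, 6.13, 7.35 and 12.99 FPKM in SSC 1 to 4, with a value of at most 0.0353 FPKM in pluripotent lines (log2 difference 3.41 ± 0.27, adjusted p = 0.000536). Nanos3 was at 72.3, 10.9, 66.2 and 84.2 FPKM, lowest in SSC 2, against 1.75 to 3.51 FPKM (log2 difference 3.83 ± 0.66, adjusted p = 0.00808). Dnd1 differed by 2.68 ± 0.30.

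Of 28 measured genes of the GDNF receptor and of spermatogonial self-renewal, 14 were higher in SSC lines by the 2-fold rule, 9 of them by the 4-fold rule, and 1, Utf1, was lower (median 1.70). The receptor tyrosine kinase Ret was at 41.7, 78.9, 21.1 and 30.1 FPKM in SSC 1 to 4 and at 0.256, 0.412, 0.365 and 0.332 FPKM in the pluripotent lines (log2 difference 4.87 ± 0.38, adjusted p = 0.000523). Its co-receptor Gfra1 was at 18.2, 22.2, 9.04 and 31.7 FPKM against 0.413, 0.196, 0.0989 and 0.128 FPKM (log2 difference 4.02 ± 0.35, adjusted p = 0.000747). Both receptors were separate between the groups. MEFs express Gfra1 as well, at 35.5 FPKM in the MEF sample, but had Ret at 0.0393 FPKM. Of the targets of this signal, Bcl6b was higher (log2 difference 2.42 ± 0.33, adjusted p = 0.00336). Etv5, another target that FGF also induces, was at 17.2, 123, 44.99 and 11.4 FPKM against 124, 105, 112 and 76.8 FPKM (log2 difference -1.63 ± 0.73, adjusted p = 0.168) and was not called. Ccnd2, a D-type cyclin, was at 34.6, 310.1, 44.6 and 45.3 FPKM against 9.28, 1.89, 0.636 and 2.95 FPKM (log2 difference 4.22 ± 0.88, adjusted p = 0.0164), with 1 high value in SSC 2.

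Surface markers used to sort SSCs went both ways, with 3 of 17 higher and 5 lower by the 2-fold rule, and with 3 higher and 2 lower without SSC 1. Mcam and Tspan8 were higher (log2 difference 2.06 ± 0.27, adjusted p = 0.0031 and log2 difference 1.82 ± 0.33, adjusted p = 0.0102), and Cdh1 and Pecam1 were lower. Cdh1 (E-cadherin) was at 2.34, 7.08, 0.642 and 4.29 FPKM in SSC 1 to 4 and at 105, 104, 102 and 131 FPKM in the pluripotent lines (log2 difference -4.83 ± 0.48, adjusted p = 0.00113). Pecam1 differed by -1.995 ± 0.36. Itga6, Cd81 and Prom1 were lower by the 2-fold rule as well, and Fut4 was higher.

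Of 26 genes of differentiating spermatogonia and of retinoic acid metabolism, 8 were higher and 2 lower. Dmrt1, a DM-domain factor of spermatogonia, was at 231, 223, 224 and 286 FPKM in SSC lines against 20.3, 9.25, 10.99 and 11.6 FPKM (log2 difference 4.16 ± 0.23, adjusted p = 0.000176), and the X-linked homeobox gene Rhox13 was at 31.2 to 61.3 FPKM against 0.485 to 4.91 FPKM (log2 difference 4.10 ± 0.48, adjusted p = 0.00204). Upp1, uridine phosphorylase, was lower (log2 difference -5.08 ± 0.93, adjusted p = 0.0104). Kit, the receptor that marks differentiating spermatogonia, was at 10.1, 14.3, 6.30 and 15.8 FPKM against 8.20, 2.96, 10.6 and 8.39 FPKM (log2 difference 0.60 ± 0.42, adjusted p = 0.377, exact permutation p = 0.229), and the groups overlapped. Stra8, a retinoic acid response gene, was not called either (1.07, adjusted p = 0.373).

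The piRNA pathway and germ plasm list had the largest share of genes higher in SSC lines among the 32 lists, with 20 of 29 measured members by the 2-fold rule, 17 of them by the 4-fold rule (median 2.90). Tdrd1, a Tudor scaffold, was at 31.1, 23.6, 35.3 and 44.3 FPKM in SSC 1 to 4 and at most at 0.882 FPKM in pluripotent lines (log2 difference 4.67 ± 0.29, adjusted p = 0.000249). The Piwi protein Piwil2 was at 53.6 to 108 FPKM against 5.03 to 8.31 FPKM (log2 difference 3.42 ± 0.24, adjusted p = 0.000356). Tdrd5, Tdrkh and Mov10l1, further parts of the pathway, differed by 4.40 ± 0.37, 3.83 ± 0.23 and 3.42 ± 0.66. Ddx4 (Vasa), the germ cell helicase, was at 170.3, 20.1, 153 and 93.2 FPKM, lowest in SSC 2, against 6.07, 12.9, 10.8 and 14.3 FPKM (log2 difference 2.88 ± 0.71, adjusted p = 0.0301). The groups did not overlap for Ddx4, and its call was lost without SSC 1, SSC 3, SSC 4, ESC 1, ESC 2, iPS 1 or iPS 2, each left out alone (adjusted p = 0.0621 to 0.0763). The 1 member that was lower was Gtsf1l, at 0.120, 0.143, 0.306 and 0.279 FPKM against 31.5, 33.0, 49.8 and 31.2 FPKM (log2 difference -4.92 ± 0.16, adjusted p = 2.7e-05). Its relative Gtsf1 had a log2 difference of 2.90 ± 1.16 and was not called (adjusted p = 0.129).

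Of 31 measured genes of the chromosome axis and of recombination, 15 were higher by the 2-fold rule, 11 of them by the 4-fold rule, and none was lower (median 1.02). With all lines set to an equal median, 13 were higher and 1 lower, and the same counts were found without SSC 1. Sycp2, an axis protein, was at 22.6, 15.9, 25.3 and 13.7 FPKM in SSC 1 to 4 against 0.135, 0.721, 0.544 and 0.547 FPKM (log2 difference 3.75 ± 0.23, adjusted p = 0.000224). The bromodomain protein Brdt was at 11.1 to 26.1 FPKM against 0.256 to 0.411 FPKM (log2 difference 3.74 ± 0.23, adjusted p = 0.000254), Tex11 at 35.9 to 72.2 FPKM against 2.04 to 4.19 FPKM (log2 difference 3.64 ± 0.27, adjusted p = 0.000424), and Syce3 at 93.0, 41.4, 85.4 and 26.4 FPKM against 1.15, 3.49, 11.8 and 8.42 FPKM (log2 difference 3.24 ± 0.69, adjusted p = 0.0177). Of the genes that act at double-strand breaks, Dmc1 was at 2.97 to 22.03 FPKM against 3.62 to 6.58 FPKM (0.60, adjusted p = 0.541) and Hormad1 was at 1.67 to 21.5 FPKM against 4.83 to 16.96 FPKM (-0.21, adjusted p = 0.936), neither called. Spo11, which makes the breaks, was at 0.529 to 1.13 FPKM in SSC lines and at most at 0.031 FPKM in pluripotent lines. Its groups did not overlap, but its log2 difference of 0.79 (adjusted p = 0.00241) was below the 2-fold rule. Of 26 Tex genes, a naming group of testis-expressed genes with no shared function, 8 were higher and 1 lower, led beside Tex101 and Tex11 by Tex13 (log2 difference 4.67 ± 0.41, adjusted p = 0.000765) and Tex15 (log2 difference 3.09 ± 0.29, adjusted p = 0.000946).

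Of 26 spermatid genes, only 2 reached 1 FPKM in all 8 lines, and a transcript near 0 in both groups cannot be called on this scale. The shares called were 3.85% higher and 3.85% lower, against 8.85% and 5.24% over all transcripts. Izumo1 was higher, at 1.61 to 3.57 FPKM against 0.220 to 1.27 FPKM (log2 difference 1.15 ± 0.28, adjusted p = 0.0293). The centrosomal and tail protein Odf2 was lower (log2 difference -2.01 ± 0.31, adjusted p = 0.00539). The call of Izumo1 was lost under quantile normalization (adjusted p = 0.0925) and was lost without SSC 1, SSC 2, SSC 4, ESC 1 or ESC 2, each left out alone (adjusted p = 0.0624 to 0.0748). Prm1, Prm2, Tnp1 and Tnp2, which package DNA in spermatids, stayed at or below 0.533 FPKM in all 8 lines.

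**Figure D4:**
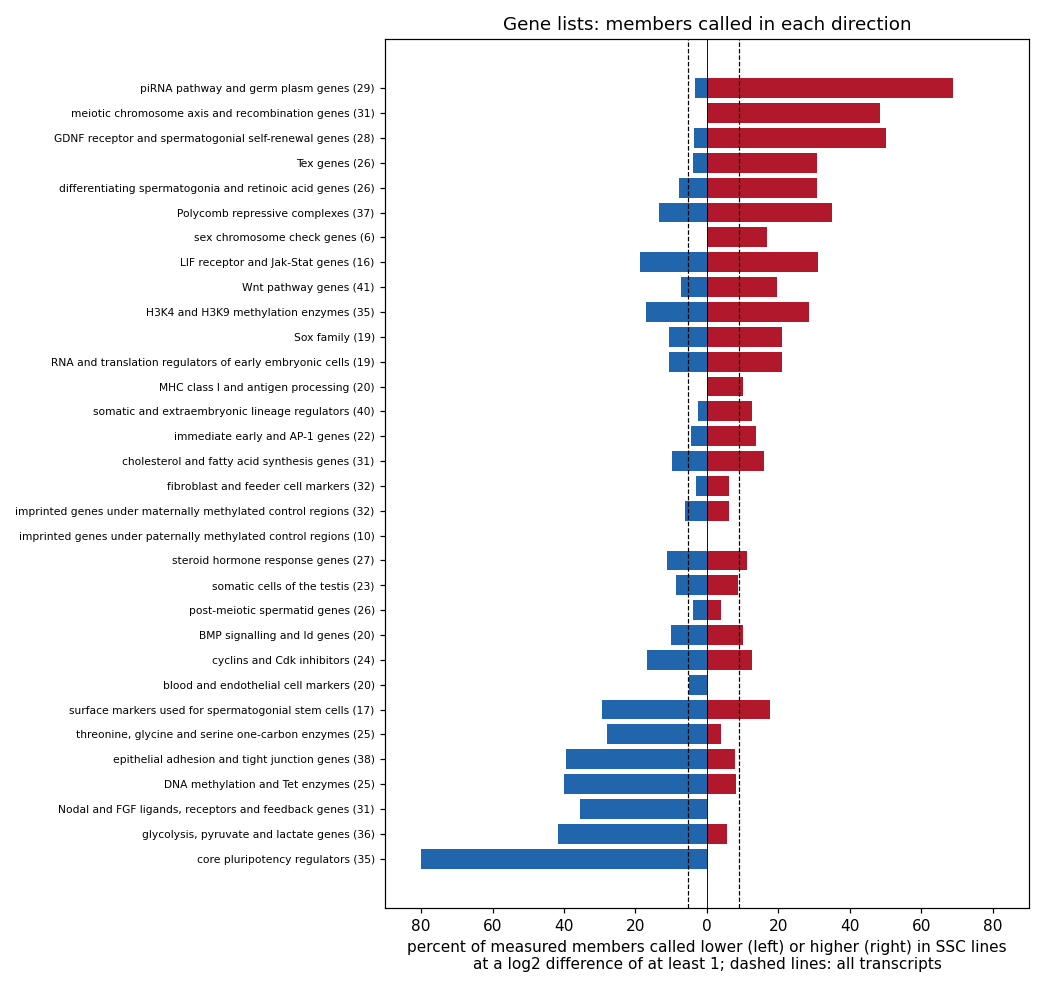
Share of the measured members of each of 32 gene lists (number measured in brackets) called higher (red, to the right) or lower (blue, to the left) in SSC lines by the 2-fold rule, in percent, with dashed lines at the shares over all transcripts, 8.85% and 5.24%. The piRNA list reached 69.0% higher and the core pluripotency list 80.0% lower.

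Promoters of the called genes were read from RefSeq windows (GRCm38.p6) that run from 250 bases before to 50 bases after a start site. RefSeq accessions tied 32219 of the 32661 transcripts to a gene, and 17704 genes had at least 1 window. The E-box CACGTG, which is the same on both strands, was in a window of 16.4% of genes with a transcript higher in SSC lines (85 of 518), of 43 of 391 of those with a lower one and of 9.21% of all genes tested (1631). The octamer ATGCAAAT, searched on both strands, was in a window of 1.74% (9), 4.09% (16) and 1.88% (333) of the same sets. The median number of CpG per window was 20, 12 and 13 in these sets, and its part in the shares was not tested. Counted per window, the E-box shares were 12.9%, 7.46% and 8.11%. A match is a description of these letters and not of binding.

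The following stretches are shown because each holds 1 of these motifs before the start site of a germ cell or pluripotency gene described above. Each is 100 bases on the gene's strand, 5′ to 3′, with the motif in capitals, and ends at the base before the start site except for Zfp42, where it ends 132 bases before it and shows the octamer as its reverse complement. They lie at chrX:134964755-134964854, minus strand (Nxf2), chrX:134476491-134476590, minus strand (Taf7l), chr3:40708771-40708870, plus strand (Slc25a31), chr19:56826109-56826208, plus strand (Tdrd1), chr5:107331094-107331193, plus strand (Brdt), chr13:112652311-112652410, minus strand (Ddx4), chr10:78049742-78049841, plus strand (Dnmt3l) and chr8:43307142-43307241, minus strand (Zfp42). The first 6 were higher in SSC lines and the last 2 were lower. Nxf2 has 5 copies of the E-box within 80 bases of the start.
Nxf2: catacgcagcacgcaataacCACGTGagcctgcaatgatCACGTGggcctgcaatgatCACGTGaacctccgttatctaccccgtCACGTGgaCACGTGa
Taf7l: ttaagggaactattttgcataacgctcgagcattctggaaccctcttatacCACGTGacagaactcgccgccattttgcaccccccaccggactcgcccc
Slc25a31: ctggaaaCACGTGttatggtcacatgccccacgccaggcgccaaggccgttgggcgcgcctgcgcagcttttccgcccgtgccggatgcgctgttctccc
Tdrd1: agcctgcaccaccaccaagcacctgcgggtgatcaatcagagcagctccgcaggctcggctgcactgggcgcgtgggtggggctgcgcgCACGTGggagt
Brdt: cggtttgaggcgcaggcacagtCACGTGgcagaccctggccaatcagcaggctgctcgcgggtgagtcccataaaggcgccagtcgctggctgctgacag
Ddx4: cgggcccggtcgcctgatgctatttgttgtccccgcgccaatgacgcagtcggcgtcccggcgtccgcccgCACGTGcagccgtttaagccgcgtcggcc
Dnmt3l: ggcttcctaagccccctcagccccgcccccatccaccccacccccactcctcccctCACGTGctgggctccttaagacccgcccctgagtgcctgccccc
Zfp42: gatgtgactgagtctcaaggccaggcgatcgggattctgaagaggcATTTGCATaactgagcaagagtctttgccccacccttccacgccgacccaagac

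Of 25 regulators of DNA methylation, 10 were lower in SSC lines by the 2-fold rule, 8 of them by the 4-fold rule, and 2 were higher. Tet1, which oxidizes methylcytosine, was at most at 0.130 FPKM in SSC lines and at 20.6, 43.1, 35.3 and 22.7 FPKM in pluripotent lines (log2 difference -4.87 ± 0.24, adjusted p = 0.000117). Tet2 was lower too (log2 difference -2.92 ± 0.27, adjusted p = 0.000918), and Tet3 was higher (log2 difference 2.34 ± 0.14, adjusted p = 0.000196). The 3 Tet enzymes thus did not move together. Dnmt3b was lower (log2 difference -3.46 ± 0.37, adjusted p = 0.00152), while Dnmt1 (0.72, adjusted p = 0.116) and Dnmt3a (-0.55, adjusted p = 0.0688) were not called. Zfp57 and Dppa3, which guard methylation at imprints, differed by -3.99 ± 0.24 and -4.44 ± 0.87. Among genes under maternally methylated imprinting control regions, 2 of 32 were higher, Ndn and Inpp5f (log2 difference 2.22 ± 0.34, adjusted p = 0.00541 and log2 difference 2.49 ± 0.29, adjusted p = 0.00196), and 2 were lower, Snrpn and Snurf (log2 difference -2.28 ± 0.19, adjusted p = 0.000687 and log2 difference -1.33 ± 0.11, adjusted p = 0.000599), which share 1 locus and overlapping reads. Both shares of this list were 6.25%, against 8.85% higher and 5.24% lower over all transcripts. The number lower was 5 under quantile normalization and 6 with equal medians, and 2 were higher in both. None of the 10 genes under paternally methylated regions was called at either rule, and only 2 of them reached 1 FPKM in all 8 lines.

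Of 37 genes of the Polycomb repressive complexes, 13 were higher and 5 lower by the 2-fold rule, and with equal medians 10 were higher and 9 lower. Without SSC 1, 10 were higher and 3 lower. The chromobox subunit Cbx8 was higher (log2 difference 3.60 ± 0.15, adjusted p = 7.5e-05), as was Cbx2 (log2 difference 2.36 ± 0.14, adjusted p = 0.000207), while Cbx7 was lower (log2 difference -1.83 ± 0.13, adjusted p = 0.000403). Cbx8 was at 22.2, 16.9, 15.1 and 20.3 FPKM in SSC 1 to 4 and at 0.513, 0.8291, 0.350 and 0.775 FPKM in pluripotent lines. Bmi1, a RING-finger subunit, was higher (log2 difference 2.40 ± 0.30, adjusted p = 0.00263), and the methyltransferase Ezh2 was lower (log2 difference -1.43 ± 0.38, adjusted p = 0.0387) where its relative Ezh1 was higher (log2 difference 1.59 ± 0.29, adjusted p = 0.00965). Of 35 enzymes of H3K4 and H3K9 methylation, 10 were higher and 6 lower. The demethylase Kdm1b and the methyltransferase Suv39h1 were higher (log2 difference 2.04 ± 0.18, adjusted p = 0.000734 and log2 difference 1.77 ± 0.19, adjusted p = 0.00147), and the demethylase Kdm4c and the germline and naive state regulator Prdm14 were lower (log2 difference -2.60 ± 0.23, adjusted p = 0.000826 and log2 difference -3.29 ± 0.18, adjusted p = 0.000145).

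Of 38 epithelial adhesion genes, 15 were lower in SSC lines by the 2-fold rule, 12 of them by the 4-fold rule, and 3 were higher. The claudins Cldn4 and Cldn6 led with Cdh1 and the keratin Krt8. Cldn4 was at 0.523, 2.03, 1.51 and 0.795 FPKM in SSC 1 to 4 against 160.0, 74.3, 118 and 182 FPKM (log2 difference -5.90 ± 0.35, adjusted p = 0.000207), and Cldn6 was at 0.478 to 8.16 FPKM against 32.2 to 120.5 FPKM (log2 difference -4.08 ± 0.70, adjusted p = 0.00834). Krt8 was at 0.601, 3.37, 0.348 and 0.0442 FPKM against 31.3, 25.9, 39.0 and 487 FPKM (log2 difference -5.18 ± 1.04, adjusted p = 0.0144), with a high value in iPS 2. The same line was highest for the smooth muscle gene Tagln, at 56.7, 22.4, 32.3 and 326 FPKM in the pluripotent lines against 1.49 to 8.89 FPKM in SSC lines (log2 difference -3.82 ± 0.90, adjusted p = 0.026), whose call was lost without SSC 1, SSC 2, SSC 4 or ESC 1, each left out alone (adjusted p = 0.0608 to 0.0655). Twist1 and Igfbp5, also expressed by fibroblasts, were higher in SSC lines (log2 difference 2.59 ± 0.18, adjusted p = 0.000364 and log2 difference 2.27 ± 0.50, adjusted p = 0.0207), and the call of Igfbp5 was lost without ESC 2 or iPS 1, each left out alone (adjusted p = 0.0551 to 0.0599). Of 32 fibroblast genes, these 2 were the only ones called higher (6.25%) and Tagln the only one called lower (3.12%) by the 2-fold rule. Equal medians gave 3 lower and the fit without SSC 1 gave none. The median log2 difference of this list was 0.995, towards SSC lines, against 0.01 over all transcripts. It was 0.87 under quantile normalization and 0.77 without SSC 1. Few calls therefore do not mean equal levels of these genes in the groups. Ocln, another tight junction gene, was higher in SSC lines (log2 difference 2.33 ± 0.40, adjusted p = 0.0085).

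Of 36 genes of glycolysis and pyruvate use, 15 were lower in SSC lines by the 2-fold rule, 8 of them by the 4-fold rule, and 2 were higher (median -0.91). Quantile normalization gave 10 lower and 1 higher, and the fit without SSC 1 gave 11 lower and 1 higher. Ldha was at 104, 62.9, 199 and 124 FPKM in SSC 1 to 4 and at 504, 474, 943 and 778 FPKM in the pluripotent lines (log2 difference -2.51 ± 0.40, adjusted p = 0.0062), and its partner subunit Ldhb was at 3.69 to 23.7 FPKM against 125 to 318 FPKM (log2 difference -3.99 ± 0.68, adjusted p = 0.00782). Hexokinase Hk2 was at 3.66 to 11.2 FPKM against 43.6 to 52.2 FPKM (log2 difference -2.79 ± 0.29, adjusted p = 0.00137). Pgk1, on the X chromosome, was at 47.4, 35.1, 146 and 27.5 FPKM against 511, 389, 978 and 726 FPKM (log2 difference -3.56 ± 0.57, adjusted p = 0.00652), with the highest SSC value in SSC 3. SSC lines were separate from pluripotent lines for these 4 enzymes. Of 25 genes of threonine, glycine and serine use, 7 were lower and 1 higher. Beside Tdh, the glycine cleavage enzymes Amt and Gldc and the folate enzyme Mthfd1 were lower (-3.93 ± 0.30, -2.35 ± 0.44 and -2.61 ± 0.23). Cholesterol and fatty acid genes split, with 5 of 31 higher, such as Dhcr7 (log2 difference 1.67 ± 0.34, adjusted p = 0.0147), and 3 lower, namely Elovl6 (log2 difference -2.95 ± 0.30, adjusted p = 0.00123), Pmvk (log2 difference -2.62 ± 0.30, adjusted p = 0.00191) and Ebp (log2 difference -1.81 ± 0.31, adjusted p = 0.0086). With equal medians 3 were higher and 4 lower.

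Of 24 cyclins and inhibitors, 3 were higher and 4 lower. Ccne1 was at 5.28 to 17.6 FPKM in SSC lines against 108 to 141 FPKM (log2 difference -3.61 ± 0.35, adjusted p = 0.00104), and Cdkn2a, the Ink4a and Arf locus, at 69.5 to 120.5 FPKM against 11.6 to 31.8 FPKM (log2 difference 2.40 ± 0.35, adjusted p = 0.00478). Among 22 immediate early genes, Egr2 and Egr1 were higher beside Egr4 (log2 difference 2.49 ± 0.29, adjusted p = 0.0019 and log2 difference 2.19 ± 0.59, adjusted p = 0.0406). Egr1 overlapped, at 118, 50.9, 106 and 43.4 FPKM in SSC 1 to 4 and 43.8, 11.7, 11.4 and 8.76 FPKM in pluripotent lines, its exact permutation p was 0.0571, and its call was lost without SSC 1, SSC 2, SSC 3, SSC 4, ESC 2, iPS 1 or iPS 2, each left out alone (adjusted p = 0.0534 to 0.106). Ier2 was lower (log2 difference -1.53 ± 0.40, adjusted p = 0.0354), and its call was lost without SSC 1, SSC 3, SSC 4, ESC 1, ESC 2 or iPS 1, each left out alone (adjusted p = 0.0622 to 0.0862). Of 27 steroid response genes, 3 were higher, Tsc22d3, Zbtb16 and the glucocorticoid receptor Nr3c1 (log2 difference 1.29 ± 0.24, adjusted p = 0.0112), and 3 were lower, including Sgk1 (log2 difference -1.87 ± 0.42, adjusted p = 0.0222) and Klf9 (log2 difference -1.41 ± 0.28, adjusted p = 0.0142). Both shares were 11.1%, against 8.85% and 5.24% over all transcripts. With equal medians 6 were higher and 4 lower. The call of Sgk1 was lost without SSC 1, ESC 1, ESC 2, iPS 1 or iPS 2, each left out alone (adjusted p = 0.0532 to 0.0624). Among 41 Wnt genes, 8 were higher and 3 lower, or 6 and 5 with equal medians. The receptors Fzd2 and Fzd3 and the ligand Wnt5b were higher (log2 difference 2.79 ± 0.51, adjusted p = 0.0105, log2 difference 2.39 ± 0.29, adjusted p = 0.00224 and log2 difference 2.16 ± 0.26, adjusted p = 0.00229), and the ligand Wnt7b was lower (log2 difference -2.54 ± 0.53, adjusted p = 0.0171).

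Several lists of other lineages had shares called near those over all transcripts. Of 40 regulators of somatic and extraembryonic lineages, 5 were higher by the 2-fold rule and 1, Olig2, was lower (log2 difference -2.42 ± 0.44, adjusted p = 0.00985). The shares were 12.5% and 2.5%, against 8.85% and 5.24% over all transcripts. Only 2 were higher under quantile normalization and also without SSC 1, and with equal medians 4 were higher and 5 lower. The LIM homeobox gene Lhx2 was at 12.22, 29.1, 7.13 and 10.2 FPKM in SSC 1 to 4 against 0.302, 0.170, 0.197 and 0.611 FPKM (log2 difference 3.40 ± 0.40, adjusted p = 0.00206). Zic1 was higher (log2 difference 2.56 ± 0.68, adjusted p = 0.0385), but its call was lost under quantile normalization (adjusted p = 0.059) and was lost without SSC 1, SSC 4, ESC 1, ESC 2, iPS 1 or iPS 2, each left out alone (adjusted p = 0.0728 to 0.0947). Afp, a fetal plasma protein, was higher too (log2 difference 2.46 ± 0.58, adjusted p = 0.0252), and its call was lost without SSC 1, SSC 3, SSC 4, ESC 1, ESC 2, iPS 1 or iPS 2, each left out alone (adjusted p = 0.0502 to 0.0672). Among 23 genes of testis somatic cells, 8.7% were higher and 8.7% lower. Wt1 and Sox9, which mark Sertoli cells, were higher (log2 difference 2.71 ± 0.38, adjusted p = 0.00394 and log2 difference 2.24 ± 0.54, adjusted p = 0.0281). Wt1 was at 20.9, 8.17, 14.3 and 13.3 FPKM and Sox9 at 1.75, 12.4, 3.23 and 9.56 FPKM in SSC 1 to 4, while the Sertoli markers Amh and Cldn11 were at most at 0.817 and 0.614 FPKM in SSC lines. Wt1 was highest in SSC 1 and Sox9 in SSC 2, and the call of Sox9 was lost without SSC 4, ESC 1, ESC 2, iPS 1 or iPS 2, each left out alone (adjusted p = 0.0544 to 0.0792). Clu and Cnn1 of the same list were lower (log2 difference -2.33 ± 0.64, adjusted p = 0.0429 and log2 difference -2.14 ± 0.41, adjusted p = 0.0125), and the call of Clu was lost with a pseudocount of 0.1 (adjusted p = 0.0648) and was lost without SSC 1, SSC 2, SSC 4, ESC 2, iPS 1 or iPS 2, each left out alone (adjusted p = 0.0532 to 0.0996). Of 20 blood and endothelial genes, Pecam1 alone was called, while 3 were lower under quantile normalization and 4 with equal medians. Of 20 genes of MHC class I and antigen processing, 10% were higher, namely Erap1 and H2-M3 (log2 difference 2.65 ± 0.29, adjusted p = 0.00158 and log2 difference 2.27 ± 0.17, adjusted p = 0.00042). In the Sox family, Sox3, Sox9, Sox13 and Sox30 were higher and Sox2 and Sox15 (log2 difference -3.65 ± 0.50, adjusted p = 0.00351) were lower, out of 19, and 3 were higher and 4 lower with equal medians. Of 6 sex chromosome check genes, 1 was higher by the 2-fold rule (16.7%, against 8.85% over all transcripts) and none was lower. This gene was Kdm5d, a Y-linked demethylase, measured in all 8 lines. It was at 3.93 to 8.02 FPKM in SSC lines and 0.220 to 1.31 FPKM in pluripotent lines (log2 difference 1.86 ± 0.27, adjusted p = 0.00456).

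Several of the largest differences lay on the X chromosome. Of the 12 largest towards SSC lines, 5 were X-linked (Tsc22d3, Nxf2, Sox3, Scml2 and Taf7l), and none of the 12 largest in the other direction was. Of 1446 transcripts on chromosome X, 61 were higher in SSC lines by the 4-fold rule (4.22%), against 650 of 31123 on autosomes (2.09%), and 32 were lower (2.21%), against 549 (1.76%). The 61 came from 57 gene symbols, with more than 1 transcript of Nxf2, of Scml2 and of 1700019B21Rik. They include neighbouring genes with similar levels, such as Ott, Luzp4, Gm10439 and Gm15097, and the Xlr copies below, so they are not independent. Transcripts that were higher on X include the TFIID-related Taf9b (log2 difference 4.89 ± 0.19, adjusted p = 5.09e-05) and a run of gene families that are found in germ cells. Xlr3a, Xlr3b, Xlr3c, Xlr4a, Xlr4b and Xlr4c differed by 3.13, 3.34, 3.31, 3.31, 3.21 and 3.19. These copies are near-identical, and reads that map to more than 1 place were excluded, so their single values are uncertain. In the pluripotent lines they were highest in ESC 1, with Xlr3b at 10.8, 1.48, 0.481 and 0.378 FPKM in ESC 1, ESC 2, iPS 1 and iPS 2. X-linked genes that were lower include the pluripotency gene Nr0b1 and the Ras-like gene Eras (log2 difference -4.69 ± 0.27, adjusted p = 0.00018). Among autosomes the share of higher transcripts ran from 1.01% on chromosome 18 to 3.52% on chromosome 19, and the share of lower ones from 0.856% on chromosome 19 to 2.66% on chromosome 14. These shares are descriptions and were not tested.

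In 7 genes, 1 transcript was called higher and another lower by the 4-fold rule, namely Ccnd3, Ddx19b, Ect2, Hmga1, Immt, Jade1 and Pigp. By the 2-fold rule there were 40 such genes, out of 4803 with at least 2 transcripts. Pigp, a subunit of the first enzyme of GPI anchor synthesis, had NM_001159620 at 2.80, 2.11, 2.94 and 0.982 FPKM in SSC 1 to 4 against 84.7, 62.5, 132 and 100.0 FPKM (log2 difference -4.90 ± 0.31, adjusted p = 0.000259), and NM_001159618 at 21.2, 22.1, 21.2 and 24.9 FPKM against 4.22, 5.91, 3.11 and 6.34 FPKM (log2 difference 2.02 ± 0.19, adjusted p = 0.000962). The summed level of its 6 transcripts was 26.2 to 37.3 FPKM in SSC lines and 72.5 to 147 FPKM in pluripotent lines. Pigp thus changed both in its total and in its leading transcript.

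Ccnd3, a D-type cyclin, had its main transcript NM_007632 at 31.4, 18.0, 37.9 and 18.9 FPKM in SSC lines against 158, 84.9, 133 and 196 FPKM (log2 difference -2.39 ± 0.35, adjusted p = 0.00448), and NM_001081635 at 12.16, 10.4, 12.8 and 24.5 FPKM against 0.553, 0.821, 1.67 and 1.73 FPKM (log2 difference 2.83 ± 0.31, adjusted p = 0.00166). Ddx19b, a helicase of mRNA export, had NM_172284 at most at 0.343 FPKM in SSC lines against 7.74, 10.97, 7.57 and 7.62 FPKM (log2 difference -3.08 ± 0.15, adjusted p = 0.000107), while NM_001190786 was at 17.4, 29.9, 22.1 and 33.6 FPKM against 5.05, 2.88, 4.43 and 5.47 FPKM (log2 difference 2.28 ± 0.25, adjusted p = 0.00165). The Ddx19b sum, 17.8 to 34.1 FPKM against 12.1 to 14.1 FPKM, differed less than either transcript. Jade1 (NM_001130184 -3.48, NM_001130185 2.39), Ect2 (NM_007900 -2.84, NM_001177625 2.68) and Immt (NM_001253681 -2.97, NM_001253688 3.48) had log2 differences of both signs. The call of NM_007900 of Ect2 was lost without SSC 1, SSC 3, SSC 4, ESC 1, ESC 2, iPS 1 or iPS 2, each left out alone (adjusted p = 0.0506 to 0.0903), and that of NM_001253681 of Immt was lost without iPS 1 or iPS 2, each left out alone (adjusted p = 0.0504 to 0.0535). Hmga1, an AT-hook chromatin protein with 14 transcripts, had a sum of 88.9 to 148 FPKM in SSC lines and 98.5 to 198 FPKM in pluripotent lines. Its NM_001166544 was at 7.10 to 13.4 FPKM in SSC lines and at most at 0.000141 FPKM in pluripotent lines (log2 difference 3.38 ± 0.19, adjusted p = 0.000162), and its NM_001166543 was lower (log2 difference -2.0 ± 0.32, adjusted p = 0.00616). Cufflinks divides the reads that transcripts of a gene share, so these are estimates and not direct counts of each transcript.

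**Figure D5:**
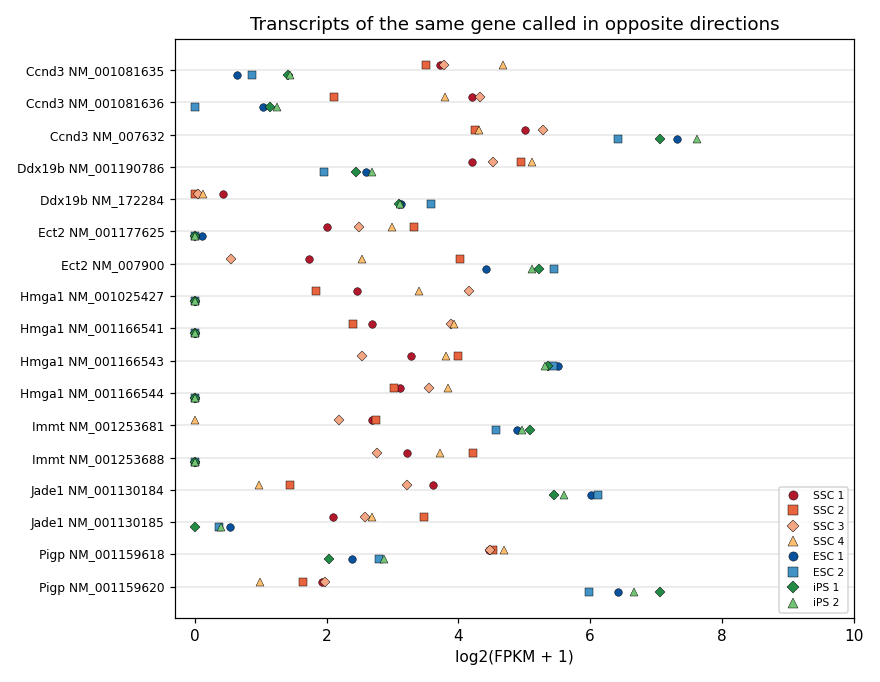
Level as log2(FPKM + 1) (x axis) in each line of the 17 transcripts of 7 genes of which 1 was called higher and another lower in SSC lines, with SSC lines in red to yellow, ESC lines in blue and iPS lines in green. For Pigp, NM_001159620 falls from the pluripotent to the SSC lines and NM_001159618 rises.

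Short transcripts were kept apart, since the FPKM of a transcript under 200 bases rests on few reads. Of the called transcripts, 18 were shorter than 200 bases. The 5 with the largest difference towards SSC lines were the microRNA hairpin entries Mir7673, Mir7037, Mir6921, Mir1898 and Mir8105, all but Mir6921 listed at 0 in the 4 pluripotent lines, and their SSC values were between 9.35 and 93.7 FPKM. The 5 in the other direction were Mir6240, Mir6385, Mir7026, Gm12238 and Snora69, with Mir6240 listed at 0 in 3 SSC lines and at 234 FPKM in SSC 4. The call of Mir6240 was lost without SSC 1, SSC 2, SSC 3, ESC 1, ESC 2, iPS 1 or iPS 2, each left out alone (adjusted p = 0.0638 to 0.0806), that of Mir7026, whose groups overlapped, was lost without SSC 1, SSC 3, SSC 4, ESC 1, ESC 2, iPS 1 or iPS 2, each left out alone (adjusted p = 0.0871 to 0.111), and that of Snora69 was lost without SSC 1, SSC 3, SSC 4, ESC 1, ESC 2, iPS 1 or iPS 2, each left out alone (adjusted p = 0.0523 to 0.106). No fold is given against values listed at 0.

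ESC lines and iPS lines were also taken as separate references, and both comparisons share the SSC lines. Of the 712 transcripts that were higher, 542 differed by at least 2 on the log2 scale from both ESC and iPS lines, and of the 581 that were lower, 462 did. ESC and iPS lines together made the call, so these counts follow in large part from it. The difference between iPS and ESC lines itself had an adjusted p under 0.05 for 101 transcripts (0.309% of those tested), of which 6 were among the 1293 called. Nanog was -6.63 from ESC lines and -7.34 from iPS lines, and the iPS lines were 0.71 above the ESC lines (adjusted p = 0.0259). Olig2 was at 1.84, 2.58, 9.39 and 7.26 FPKM in ESC 1, ESC 2, iPS 1 and iPS 2, and the iPS lines were 1.54 above the ESC lines (adjusted p = 0.031). The fit pooled the spread of SSC, ESC and iPS lines, and the SSC lines were near 0 for Nanog and Olig2. These p-values therefore do not measure the spread between ESC and iPS lines alone.

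Strain was followed in the same way. Within the Oct4-GFP background there were 2 SSC lines and 1 ESC line, and within 129mix 1 SSC line and 3 pluripotent lines. Of the 712 transcripts that were higher, 691 exceeded a log2 difference of 1 within both backgrounds, and of the 581 that were lower, 574 did. The lines of both backgrounds are among those that made the call, so these counts follow in large part from it. They are no separate test of strain. Tex101 differed by 6.66 and 6.05, Ret by 5.54 and 4.50, Tdgf1 by -7.82 and -9.11 and Sox2 by -5.78 and -7.19 within Oct4-GFP and 129mix, in that order. The interaction of strain and cell type had an adjusted p under 0.05 for 158 transcripts (0.484%), in a fit of 7 lines that leaves 3 residual degrees of freedom. Of the named genes longer than 200 bases, none was among them, and Zfp42 came closest with Hmga1 NM_001166544 (adjusted p = 0.0838 and 0.0751).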

How the data were processed

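Total RNA was sequenced with a TruSeq kit on an Illumina HiSeq instrument. Per the labels and the submitters' processing notes, the authors aligned reads to mm9 with TopHat2 2.0.11, excluded duplicate and multiply mapped reads, and deposited FPKM values per RefSeq transcript from Cufflinks, with upper-quartile and GC normalization. The deposited coverage column, made by the same Cufflinks step of the authors, gives reads per base and was used for depth alone. No read counts were used here, so intervals from counts are not given.

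Of 33262 entries in each file, 32661 carry a plain RefSeq identifier and were analysed. Log2(FPKM + 1) values of 4 SSC lines were compared with those of 2 ESC and 2 iPS lines in limma 3.58.1 (R 4.3.3), without a filter on low values, and p-values were adjusted over all transcripts by Benjamini-Hochberg. The method was tested on simulated data. Single genes were also compared by an exact two-sided permutation test over lines. The members and the 32 gene lists (847 of 855 genes found) were chosen with earlier results of these data known. A gene of a list is represented by the transcript whose FPKM, averaged over all 8 lines, was highest.

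Genes were named by rule. The rule took the 12 transcripts with the largest difference in each direction, of at least 200 bases, called 4-fold and without overlap of the lines. It took up to 4 called members with the largest difference from each list, 16 genes whatever they showed (Pou5f1, Nanog, Sox2, Zfp42, Zbtb16, Gfra1, Ret, Kit, Ddx4, Dazl, Cdh1, Lin28a, Sall4, Dnmt3l, Klf4 and Myc), genes with transcripts called both ways, the 5 transcripts under 200 bases with the largest difference in each direction, and core pluripotency genes in which 1 SSC line stood apart. Genes given outside this rule, such as Piwil2, Tet2, Cbx7, Ezh2, Esrrb, Etv5, Dmc1, Ocln, Bcl6b and the Xlr family, were chosen after their values were seen. The alternatives were another pseudocount, filter, scaling, threshold, variance model and reference group, a fit of all 17 samples, blocks for strain and line number, and each line left out. MASC files and the remaining cell types entered only the fit of all 17 samples, apart from the MEF values given as background.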

Additional observations from a re-analysis of the deposited data

Results flagged for a closer look

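In 33 of 300 groups of 4 lines (150 named transcripts, each in SSC and in pluripotent lines), 1 line stood apart from the other 3 by Dixon's test. Chance gives about 1 in 20, the genes are not independent, and many of the values lie near 0. Values here are log2(FPKM + 1) of the line that stood apart.

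SSC 2 was that line in 11 groups. It was the lowest SSC line for Egr4 (6.67), Nanos3 (3.58), Utf1 (2.38) and Elovl6 (1.26). It was the highest SSC line for Ccnd2 (8.28, or 310.1 FPKM against 34.6 to 45.3 FPKM), Odf2 (4.65) and Pecam1 (2.62), and near 0 for Nanog (0.0614) and Zscan10 (0.233). It also held the 1 SSC value above 0 of the short transcripts Mir6385 (2.63) and Mir7026 (4.63). Dmrt1 was highest in SSC 4 (8.17), as were Zfp296 (3.85), Mir6240 (7.87) and, near 0, Tet1 (0.176) and Otx2 (0.098), while Zfp42 was lowest there (0.761). SSC 3 was the lowest SSC line for Myc (0.00494) and the highest for Fgf4 (0.139).

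In the pluripotent lines, iPS 2 was highest for Krt8 (8.93, or 487 FPKM against 25.9 to 39.1 FPKM), Cdh1 (7.05) and Foxf1 (1.04), and iPS 1 for Ldhb (8.32), Gtsf1l (5.67), Tspan8 (1.04) and Mir6921 (3.63). ESC 1 was highest for Egr2 (1.1), Nanos2 (0.05) and Ect2 NM_001177625 (0.102). ESC 2 was lowest for Wfdc2 (6.04) and Ccnd3 NM_001081636 (3.67e-05), and highest for Ddx19b NM_172284 (3.58) and Hmga1 NM_001025427 (0.000138).

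In the fit with limma, iPS lines were above ESC lines for Nanog (log2 difference 0.707, adjusted p = 0.0259) and Olig2 (1.54, adjusted p = 0.031), with both iPS lines above both ESC lines for each gene. The spread in this fit was pooled with that of the SSC lines, which were near 0 for Nanog and Olig2. For 4 short transcripts the log2 difference between SSC and pluripotent lines was not the same in both backgrounds. Its value in 129mix minus that in Oct4-GFP was 1.37 for Mir7673 and for Mir7037 (adjusted p = 0.00241), -0.57 for Mir1898 (adjusted p = 0.0298) and 6.71 for Mir6240 (adjusted p = 0.0124). Each background holds a group of 1 line, and these transcripts were listed at 0 in all lines of 1 group within a background.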

How the results depend on the processing

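A pseudocount of 0.1 gave 1874 transcripts higher and 1210 lower in SSC lines, and a log2 difference of at least 1 gave 2892 and 1711, in place of 712 and 581. With the line number as a replicate block the counts were 463 and 352. The deviations of same-numbered lines from their group means correlated with a mean r of 0.116 over 4 pairs (-0.0658 to 0.273), against -0.0385 over 12 other pairs. Deviations from a mean of 2 ESC or 2 iPS lines mirror each other, such as SSC 1 with ESC 1 (0.221) and with ESC 2 (-0.221). These r values therefore repeat each other and cannot exclude a pairing by number, so whether the block fits the design was not settled. Leaving out each line in turn gave 614 to 764 higher and 526 to 597 lower. With the filter on low values, which also changes the variance shared among transcripts in limma, the counts were 759 and 626, with ESC lines alone as reference 548 and 431, with iPS lines alone 559 and 574, and with strain as a block 646 and 520. A fit of all 17 samples gave 748 and 614. Both alternatives chosen after seeing the data, leaving out transcripts under 200 bases (703 and 575) or those at 0 in all lines of a group (718 and 587), stayed within 1.5 times of the counts first given. Of the named transcripts, Lin28a and Sall4, neither of them called, changed sign in some settings. Lin28a was -0.14 and became 1.03 within 129mix, and Sall4 was -0.25 and became 0.30 with iPS lines alone and 0.43 within 129mix. Of 150 named transcripts, 55 lost their call under the replicate block, 44 with ESC lines alone, 39 with iPS lines alone and 31 with strain as a block, where fewer lines or degrees of freedom entered the fit. Genes named outside the rule were not followed through these settings. FPKM without counts limits what can be said of transcripts near 0, whose log2 difference depends on the pseudocount.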
